A study of Mus musculus with 2 samples.

Results

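Type I interferon-stimulated genes were followed across the immune cells of mouse melanomas. The set held 35 genes chosen by name, of which 34 had counts among the 24510 genes of the table, and Mx2 was not analysed here. Immune cells were sorted for the leukocyte antigen CD45 from subcutaneous tumours of B16F10, a transplantable pigmented melanoma line, in female C57BL/6 mice, and their transcripts were counted cell by cell. The injected tumour cells were wildtype, Tyr knockout or Oca2 knockout, with 3 mice for each of the 3 tumour genotypes. For the mice the labels give the C57BL/6 strain and no allele, treatment or age, although the series title speaks of PD-1 deficient T cells. The design text names cell suspensions from the wildtype and Tyr knockout tumours, while the protocol lists all 3. The cells of each genotype were pooled under 1 sample tag, and tags 8, 9 and 10 went through 1 capture. The labels do not say which genotype carried which tag, so no genotype was compared with another, and the 3 tags serve as 3 pools of cells in which each difference between cell classes was measured. Whether the spread between tags is technical or comes from genotype or mice cannot be told apart.

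Type I interferons are the interferon alpha family and interferon beta. They bind the receptor of Ifnar1 and Ifnar2, whose kinases Jak1 and Tyk2 activate STAT proteins, among them Stat2, which joins Irf9 in the factor that binds interferon-stimulated response elements in promoters. The genes switched on in this way sense viral nucleic acid, block translation or release of virus, or damp the response, and they are also expressed in tumour-infiltrating myeloid cells.

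The kept cells numbered 10491, with 3336, 3486 and 3669 in tags 8, 9 and 10, a median of 3489 molecules per cell, and totals of 20020951, 20814133 and 22908828 molecules. Classes were gated on raw molecules of lineage markers outside the interferon-stimulated genes: 5511 cells (52.5%) fell in 1 of 18 classes, 4929 in none and 51 in several. Lineage genes that the gates did not use were mostly high where they belong, though not all were highest there. Vcan was highest in monocytes at 455.6 CPM (molecules of a gene scaled to an equal total for each class and tag). Tcf4 was highest in plasmacytoid dendritic cells at 1756 CPM, Ccl22 in Ccr7 dendritic cells at 3378 CPM and Pax5 in B cells at 381.0 CPM. Irf8 ranked only 4th among the classes in type 1 dendritic cells, at 1036 CPM. In CD8 T cells without checkpoint receptor molecules Lat ranked 3rd and Cd2 4th. The gamma-delta 17 gate was the weakest, with Il17rb at 8.156 CPM. Although the sort was for CD45, 50 cells carried at least 50 melanocyte molecules and no Ptprc, and they are described as melanoma cells but not tested, with 16 or 17 cells in each tag. The C1q transcripts of macrophages had 3840 CPM and 4757 CPM in the macrophage classes that carry them. Their medians lay between 10.77 CPM and 69.51 CPM in all other classes. The gates of the other immune classes left out cells with more than a few C1q molecules. The low values there are thus capped by the gate and do not measure free RNA.

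The promoters of the members hold the sequence that the interferon-activated factor recognises more often than promoters at large. The motif searched was GAAANNGAAA on both strands, in RefSeq windows of 300 bases on GRCm38.p6, from 250 bases before to 50 after a start site. It was present in 14 of 25 members with a window (56.0%), against 1079 of 27025 genes with a window (3.99%). Matches are descriptions of letters, not of binding. Among the members without a match in the window were Ifit2, Oasl1, Oasl2, Irf7, Irf9 and Slfn4. The 200 bases before the start site are printed for 4 members, chosen because Isg15 and Rsad2 were abundant in most myeloid classes while Ifit3 and Bst2 went opposite ways in plasmacytoid dendritic cells. Capitals mark the matches, and each sequence reads toward the gene:
Isg15, chr4:156200819-156201018, minus strand, 3 overlapping matches that begin 78 bases before the start: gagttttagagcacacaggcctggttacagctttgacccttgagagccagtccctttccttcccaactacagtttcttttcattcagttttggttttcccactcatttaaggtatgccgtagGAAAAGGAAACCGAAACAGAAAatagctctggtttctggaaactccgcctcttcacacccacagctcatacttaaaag
Rsad2, chr12:26456453-26456652, minus strand, 1 match that begins 120 bases before the start: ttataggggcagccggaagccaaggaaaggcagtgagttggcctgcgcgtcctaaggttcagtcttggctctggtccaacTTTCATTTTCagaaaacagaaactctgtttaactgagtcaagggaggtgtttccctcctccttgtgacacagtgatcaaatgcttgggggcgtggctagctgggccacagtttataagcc
Ifit3, chr19:34583329-34583528, plus strand, 2 matches that begin 156 bases before the start: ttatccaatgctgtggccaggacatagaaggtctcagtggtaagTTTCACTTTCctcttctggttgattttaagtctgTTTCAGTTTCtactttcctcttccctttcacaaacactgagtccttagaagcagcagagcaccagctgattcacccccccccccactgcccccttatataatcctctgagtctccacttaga
Bst2, chr8:71537473-71537672, minus strand, 2 overlapping matches that begin 130 bases before the start: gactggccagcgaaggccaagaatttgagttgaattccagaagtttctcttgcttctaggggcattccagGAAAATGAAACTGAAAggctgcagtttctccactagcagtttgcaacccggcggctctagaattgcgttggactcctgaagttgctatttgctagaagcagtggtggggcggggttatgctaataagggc

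Expression of the set was highest in some myeloid classes, but not high in all of them. The level of a class is the CPM of the gene among all molecules of that class in a tag, and the summed level adds the 34 members. Because each transcript is counted once near its 3′ end, no length enters the scale. The summed level was 7732, 7555 and 6506 CPM in neutrophils of tags 8, 9 and 10, and 6330, 7219 and 8538 CPM in monocytes. Other C1q macrophages, meaning those without molecules of Folr2, Cd163 or Cbr2, followed with 4245, 6292 and 5494 CPM, and Cd209a dendritic cells with 4779, 6581 and 4912 CPM. Neutrophils overlapped with monocytes, and Cd209a dendritic cells with other C1q macrophages. Cd209a dendritic cells of tag 9 also lay above the lowest tag of neutrophils and of monocytes. Every tag of monocytes lay above every tag of other C1q macrophages. Some myeloid and dendritic classes stood at the level of T cells. Medians over the tags were 2816 CPM in Arg1 macrophages, 2636 CPM in type 1 dendritic cells and 2323 CPM in Ccr7 dendritic cells. Conventional CD4 T cells had 2782 CPM and regulatory T cells 2392 CPM. B cells had 1556 CPM and CD8 T cells with checkpoint receptor molecules 1183 CPM (1078 to 1193). Melanoma cells had 293.3 CPM (226.5 to 347.4), the lowest of the 18 classes.

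**Figure D1:**
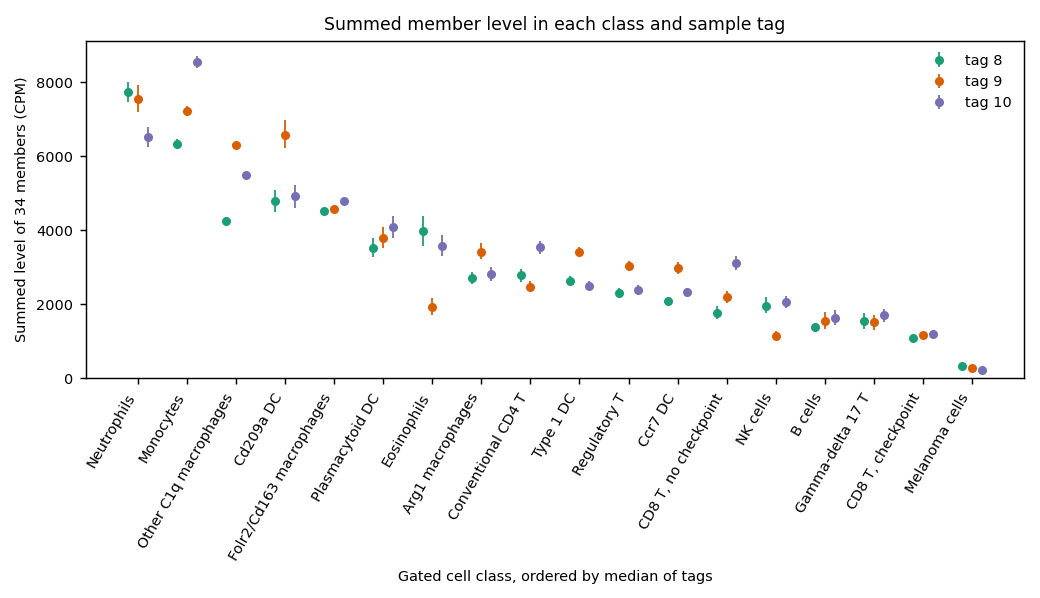
Summed level of the 34 members in CPM (vertical axis) in each gated cell class (horizontal axis); 1 point per sample tag, with exact Poisson 95% intervals that cover counting error only. Neutrophils and monocytes have the highest medians, with tags between 6330 and 8538 CPM, a range that Cd209a dendritic cells of tag 9 reach at 6581 CPM. Melanoma cells stand lowest, at 226.5 to 347.4 CPM.

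In 2 classes the sum rested on a single gene. Slfn4, a schlafen gene known from myeloid cells, gave 46.7% of the neutrophil sum, and without it neutrophils had 4029 CPM (3453 to 4332) against 6680 CPM (5378 to 7766) in monocytes. Bst2, which encodes tetherin and is a common surface marker of mouse plasmacytoid dendritic cells, gave 49.0% of the sum of those cells, which was 3792 CPM with it and 1935 CPM without it. Taken as the mean of log2(CPM + 1) over the members, a measure in which each gene weighs the same, monocytes were highest at 7.02, followed by other C1q macrophages at 6.76, Cd209a dendritic cells at 6.66 and Folr2 or Cd163 macrophages at 6.43, while plasmacytoid dendritic cells stood at 4.31 and melanoma cells at 2.38.

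Members differed in how widely they were expressed. The class with the highest level was monocytes for 13 members, neutrophils for 7, and plasmacytoid or Cd209a dendritic cells for 4 each. For 24 of the 34 members the tag values of the first and second class overlapped, and for 10 (29.4%) they did not; among all 8220 tested genes 36.6% had no such overlap, so the share of members lay below the background.

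Among the factors, Stat2 had 249.4, 318.8 and 331.0 CPM in plasmacytoid dendritic cells and between 90.26 and 207.4 CPM in Cd209a dendritic cells, the next class. Irf9 was highest by median in B cells, at 124.7, 277.8 and 186.3 CPM. These overlapped the 160.0, 83.88 and 173.6 CPM of plasmacytoid dendritic cells, the next class. Irf9 was at 59.57 CPM or more in every immune class by its median. Irf7, which amplifies interferon production, was highest by median in monocytes at 223.6, 255.2 and 358.3 CPM. Other C1q macrophages, at 140.5, 201.4 and 263.8 CPM, overlapped with them. Stat2 and Irf9 thus peaked outside the myeloid classes that led most members.

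Of the sensors, Ifi204, a DNA sensor, had 494.4, 582.3 and 644.1 CPM in monocytes, with no overlap with other C1q macrophages (262.7, 440.3 and 352.2 CPM). Ifih1, which encodes the RNA sensor MDA5, had 155.3, 167.4 and 180.2 CPM in monocytes, overlapping the 99.74 to 180.3 CPM of other C1q macrophages. Ddx58, which encodes RIG-I, was not led by monocytes: eosinophils had a median of 83.41 CPM and CD8 T cells without checkpoint molecules 70.87 CPM.

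Among the effectors, Isg15, a ubiquitin-like modifier, had 375.5, 642.0 and 690.3 CPM in monocytes and reached at least 20 CPM in 17 of the 18 classes by its median. Rsad2, which encodes viperin, had 524.6, 614.1 and 322.5 CPM in neutrophils and 378.2, 507.6 and 526.7 CPM in monocytes. Oasl1, which damps Irf7 translation, was at 322.3, 516.7 and 277.1 CPM in other C1q macrophages, and 96.7% of its molecules in gated immune cells lay in the 10 myeloid and dendritic classes. Isg15 and Rsad2 thus overlapped between monocytes and neutrophils.

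Some members stood highest in 1 class without overlap with the next. Slfn4 had 3400, 3526 and 3053 CPM in neutrophils, above every tag of monocytes (539.1 to 952.3 CPM). Ifi27l2a had 1012, 820.3 and 1122 CPM in monocytes, above the 636.5 to 774.0 CPM of regulatory T cells, its second class. Mx1 transcripts had 66.51, 72.82 and 70.83 CPM in Cd209a dendritic cells and at most 4.652 CPM in neutrophils.

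**Figure D2:**
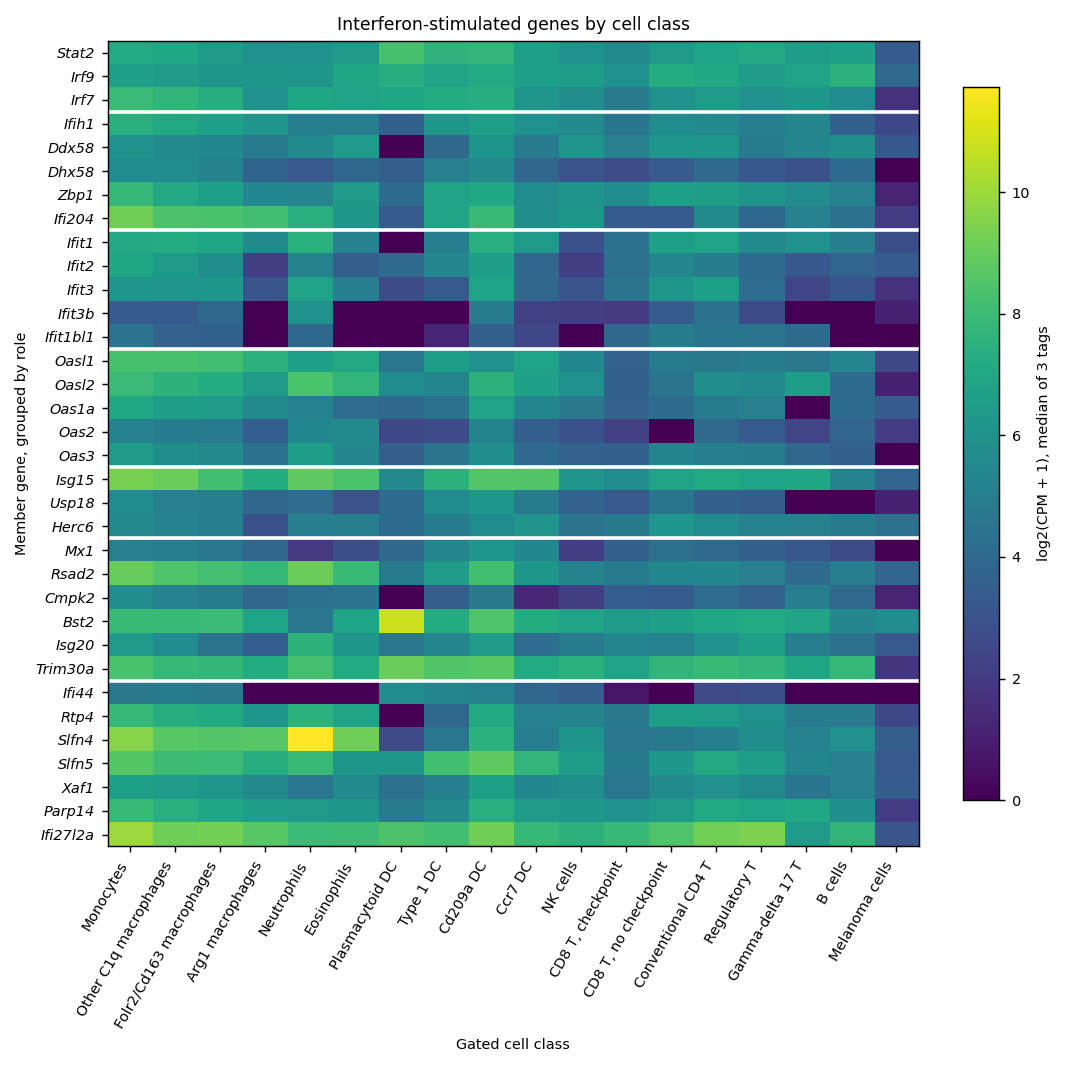
Level of each member (rows, grouped by role, white lines between groups) in each gated class (columns), as log2(CPM + 1) of the median of 3 tags. Slfn4 in neutrophils (3400 CPM) and Bst2 in plasmacytoid dendritic cells (1770 CPM) stand out, and Ifit1, Ifit1bl1 and Ifit3b have a median of 0 in plasmacytoid dendritic cells.

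Several members are close copies that sit side by side on GRCm38: Ifit2, Ifit3, Ifit1bl1, Ifit3b and Ifit1 between 34550694 and 34650009 on chromosome 19, Oasl2 and Oasl1 between 114896936 and 114937915 on chromosome 5, and Oas2, Oas3 and Oas1a between 120730333 and 120907521 on the same chromosome. Reads of near-identical copies can be split between them, so values of Ifit1 against Ifit1bl1 and of Ifit3 against Ifit3b are uncertain. Sums of each pair are given beside the contrasts that turn on them.

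Over the 17 immune classes, members followed the others to differing degrees. The Pearson correlation of a member's log2(CPM + 1) with the mean of the other members was 0.89 for Oas3, 0.88 for Isg15 and 0.86 for Slfn5, and it was -0.19 for Irf9, 0.06 for Bst2 and 0.16 for Stat2. It lay between 0.33 and 0.47 for Trim30a, Ifi44, Ddx58, Herc6, Ifit1bl1 and Isg20, and at 0.50 or above for the remaining members. The spread of this correlation over all other genes is not given, so it has no background. These are descriptions over classes that share 1 capture, 3 tags and differences of depth. Of 8053 other genes, those closest to the mean of the members were Sirpb1a (0.923), Edn1 (0.858), Gm9733 (0.845), Tgfbi (0.829), Il18bp (0.820) and Flt1 (0.817). Tgfbi, a secreted matrix protein gene, reached 1878 CPM in monocytes, and the other 5 stayed at or under 114.6 CPM.

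Transcripts of the ligands were few. Ifnb1, interferon beta, had 916 molecules in 459 kept cells, and Ifna2 had 14 molecules in 9 cells, with 0 to 3 molecules for each of the other 7 ligand genes in the table. By tag, Ifnb1 had 66.30, 20.52 and 11.68 CPM in Arg1 macrophages, 43.18, 31.75 and 28.39 CPM in other C1q macrophages, and 32.42, 28.81 and 23.47 CPM in monocytes. Tag 8 was the highest of the 3 tags in each of these 3 classes. Neutrophils, eosinophils, plasmacytoid dendritic cells and Ccr7 dendritic cells had no Ifnb1 molecule; in plasmacytoid dendritic cells this allows up to 5.21 CPM (3 molecules).

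The receptor genes had a different distribution from the members. Ifnar1 had 348.3, 324.3 and 227.9 CPM in plasmacytoid dendritic cells, and its median in the other 16 immune classes lay between 46.52 CPM in neutrophils and 122.3 CPM in gamma-delta 17 T cells. Ifnar2 had 277.7, 363.5 and 141.1 CPM in plasmacytoid dendritic cells and 108.7, 109.1 and 110.5 CPM in monocytes. Receptor transcripts were thus highest in a class where most members were low.

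Class differences were tested with edgeR's quasi-likelihood test on molecules summed by class and tag, over 17 classes and 8220 genes, in which all 34 members passed the filter on low counts. A gene was called with a Benjamini-Hochberg adjusted p below 0.05 over all 8220 genes and at least a 2-fold ratio. Log2 ratios are given with their SE and with n = 3 tags in each class. Folds and bounds printed for genes of few molecules are another measure. They compare summed molecules over class totals, without TMM factors. Beside the members, 55 genes of a list of interferon pathway genes were tested, which held ligands, receptors, kinases and factors, sensors, feedback genes and further interferon-stimulated genes.

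No member passed both thresholds between monocytes and C1q macrophages. None was called higher or lower in monocytes than in C1q macrophages without Folr2, Cd163 or Cbr2, where 0.645% of all genes were called higher and 1.40% lower; 17 members were higher and 0 lower at an unadjusted p below 0.05, and DESeq2 called 0 in either direction. The share of all genes at an unadjusted p below 0.05 is not given, here or in the other contrasts. Counts at that threshold thus have no background beside them. The median log2 ratio of the members was 0.49, against -0.02 for all genes. Of the 34 members 31 lay above 0, and the share of all genes above 0 is not given. Slfn4, with the largest ratio, had 952.3, 539.1 and 771.8 CPM in monocytes and 408.7, 313.3 and 408.6 CPM in the macrophages, without overlap (log2 ratio 1.01 ± 0.38 SE, adjusted p = 0.14). Oas3, an oligoadenylate synthetase gene, had 85.10, 74.76 and 124.3 CPM against 32.84, 56.31 and 61.09 CPM (log2 ratio 0.95 ± 0.24 SE, adjusted p = 0.013), just under the 2-fold mark. The other 2 members with an adjusted p below 0.05 and a smaller ratio were singled out after their values were seen. Trim30a, a tripartite motif gene, had 324.2, 329.9 and 410.1 CPM against 200.1, 229.0 and 263.0 CPM (log2 ratio 0.66 ± 0.15 SE, adjusted p = 0.0049), and Ifi27l2a had 1012, 820.3 and 1122 CPM against 563.8, 562.8 and 518.2 CPM (log2 ratio 0.89 ± 0.25 SE, adjusted p = 0.033). Neither overlapped between the classes. With stricter gates 4 members were called higher, and without tag 9 there were 2, again without a share of all genes beside them.

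Within this contrast no receptor or kinase gene was called. The log2 ratio was 0.16 ± 0.18 for Ifnar1, 0.28 ± 0.20 for Ifnar2, 0.12 ± 0.13 for Jak1 and 0.37 ± 0.24 for Tyk2, with adjusted p between 0.51 and 0.77. None of the 55 pathway genes was called, and their median was 0.28.

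C1q macrophages with Folr2 or Cd163, markers of tissue-resident-type macrophages, differed from the other C1q macrophages in 1 member that was called. Their summed level was 4519, 4569 and 4800 CPM against 4245, 6292 and 5494 CPM, and the groups overlapped. In Folr2 or Cd163 macrophages against other C1q macrophages, 1 member was called lower and 0 higher, where 1.05% of all genes were called lower and 0.937% higher; no member was higher at an unadjusted p below 0.05, 5 were lower, and DESeq2 called 0. The median log2 ratio was -0.21 for members and -0.01 for all genes, with 27 members below 0. Isg20, an exonuclease gene, had 20.75, 22.18 and 23.64 CPM against 32.23, 49.51 and 52.82 CPM, without overlap (log2 ratio -1.03 ± 0.28 SE, adjusted p = 0.024). The call of Isg20 was lost without each of the 3 tags in turn, in DESeq2, after thinning of the cells and without the tag block. Median depth was 12096 molecules per cell in Folr2 or Cd163 macrophages and 7043.5 in the other C1q macrophages. The gates count molecules of Folr2, Cd163 and Cbr2, so depth and expression of these markers cannot be told apart in this contrast.

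Isg15 had 259.6, 335.8 and 286.4 CPM in the Folr2 or Cd163 macrophages and 335.1, 744.6 and 530.4 CPM in the others (log2 ratio -0.84 ± 0.27 SE, adjusted p = 0.080), and the groups overlapped. Ifit1bl1 was at -0.75 ± 0.50 (adjusted p = 0.59). Of the 55 pathway genes, 2 were called lower and 0 higher: the guanylate-binding protein genes Gbp2 (log2 ratio -1.81 ± 0.28 SE, adjusted p = 1.9e-05) and Gbp3 (-1.53 ± 0.23). Both are known to respond also to interferon gamma. The log2 ratio was -0.17 ± 0.18 for Ifnar1, -0.24 ± 0.20 for Ifnar2, -0.09 ± 0.12 for Jak1 and -0.14 ± 0.24 for Tyk2, none of them called.

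Neutrophils and monocytes, which had the highest summed levels, were compared next. In neutrophils against monocytes, 19 of the 34 members were not called, 6 members were called higher and 9 lower, so that 6 of 15 called members were higher; across all genes 15.0% were called higher and 19.9% lower. The shares of members called, 17.6% and 26.5%, lay near these backgrounds. The scaling mattered here: with library totals in place of TMM factors the median of all genes moved from -0.24 to -0.95 on the log2 scale, and 3 members were called higher and 17 lower. All 15 called members kept their direction with library totals, and 12 kept their call. The lost calls were all among the members called higher. The share of all genes called with library totals is not given for any contrast, so counts with that scaling have no background beside them.

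The members called higher in neutrophils were Ifit3b, Slfn4, Isg20, Ifit3, Ifit1 and Oasl2. Ifit3b had 64.15, 41.87 and 97.91 CPM in neutrophils and 8.105, 9.602 and 18.64 CPM in monocytes (log2 ratio 3.22 ± 0.43 SE, adjusted p = 1.05e-07). Slfn4, with the neutrophil values given above, was at 2.93 ± 0.40 (adjusted p = 4.70e-08). Isg20 had 226.8, 190.7 and 132.5 CPM in neutrophils and 52.68, 76.82 and 93.20 CPM in monocytes (log2 ratio 2.09 ± 0.28 SE). Each of these 3 genes was higher in neutrophils of every tag, without overlap.

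Ifit3 had 98.51, 167.5 and 106.6 CPM against 50.65, 69.27 and 137.4 CPM, and these overlapped (log2 ratio 1.28 ± 0.31 SE, adjusted p = 6.29e-04, higher in 2 of 3 tags). Ifit1 was at 1.20 ± 0.35 (adjusted p = 0.0050) with values that overlapped too. By median Ifit1 had 178.7 CPM in neutrophils and 133.9 CPM in monocytes. Oasl2, fitted at 1.16 ± 0.25, had 335.0 CPM and 252.4 CPM. The ratios of medians of Ifit1, Oasl2 and Ifit3 (106.6 CPM and 69.27 CPM) lay under 2-fold in CPM and passed it only in the fit with TMM factors. Summed with its close copy, Ifit3 and Ifit3b had 162.7, 209.4 and 204.5 CPM in neutrophils and 58.76, 78.88 and 156.0 CPM in monocytes, without overlap. The sum of Ifit1 and Ifit1bl1, at 178.7, 223.3 and 164.2 CPM against 93.88, 184.5 and 172.6 CPM, overlapped.

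Lower in neutrophils were Mx1, Ifi44, Bst2, Dhx58, Zbp1, Ifih1, Xaf1, Ifi27l2a and Oas1a. Mx1 had 0.000, 4.652 and 2.880 CPM in neutrophils and 28.37, 33.61 and 71.80 CPM in monocytes, from 2 and 195 molecules, a ratio of 22.2-fold (exact 95% interval of the counts 6.06 to 185). Ifi44 had 1 molecule in neutrophils and 91 in monocytes, 20.7-fold lower (3.63 to 827). These folds use no TMM factors. The fitted log2 ratios, which use them, were smaller differences, at -3.64 ± 0.86 for Mx1 and -3.48 ± 1.33 for Ifi44. Bst2 had 16.04, 37.22 and 23.04 CPM against 186.4, 235.3 and 303.1 CPM (log2 ratio -2.62 ± 0.32 SE, adjusted p = 5.33e-09).

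Of the 5 sensor genes 3 were called lower in neutrophils: Dhx58, which encodes LGP2, at -1.94 ± 0.46, Zbp1, a sensor of Z-form nucleic acid, at -1.61 ± 0.29, and Ifih1 at -1.50. Zbp1 had 38.95, 60.48 and 14.40 CPM in neutrophils and 117.5, 225.0 and 228.5 CPM in monocytes. The other 2 sensors, Ddx58 and Ifi204, were not called; Ifi204 was at -0.95 ± 0.32 and Oasl1 at -0.92 ± 0.26, the largest ratios without a call. Median depth was 2043.5 molecules per cell in neutrophils and 5862 in monocytes, and its part in these differences was not tested beyond the thinning of cells to 1000 molecules, after which 5 members were called higher and 7 lower of 22 tested.

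Of the 55 pathway genes, 4 were called higher and 25 lower in neutrophils, beside 15.0% and 19.9% of all genes, with a median of -0.92. With library totals 1 was called higher and 41 lower, for which the share of all genes is not given. Jak1 was called higher (1.42 ± 0.14, adjusted p = 7.05e-12), at 382.6, 423.4 and 319.7 CPM against 216.8, 239.4 and 236.8 CPM. In CPM, which uses no TMM factors, Jak1 was less than 2-fold higher in every tag. Tyk2 was lower, with 2 molecules in neutrophils and 108 in monocytes (12.3-fold, 3.32 to 103). Ifnar1 (-0.39 ± 0.27) and Ifnar2 (0.25 ± 0.26) were not called.

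Among the other pathway genes called in neutrophils, the largest fitted ratios were those of Ifnb1, Phf11d, Ms4a4c and Tmem173, which encodes the adaptor STING; the order of such low counts is uncertain, and that of Ifnb1 is fitted over 0 molecules. Ifnb1 had 0 molecules in neutrophils and 124 in monocytes. In CPM without TMM factors this was at least 9.41-fold lower, against a floor of 3 molecules over the class. Phf11d had 1 and 388 molecules (88.3-fold, 15.8 to 3500), and Tmem173 had 3 and 338 (25.6-fold, 8.70 to 125). Ms4a4c was at -5.09 ± 0.41.

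Plasmacytoid dendritic cells, known as strong producers of interferon alpha, had low levels of most members. Against Cd209a dendritic cells 27 members were called lower and 1 higher, where 10.9% of all genes were called lower and 8.55% higher. The median log2 ratio was -2.44 for members and -0.06 for all genes; with the 2 members at 0 in plasmacytoid dendritic cells set to their bound it was -2.33. All 5 IFIT genes, all 5 OAS family genes, all 5 sensors and all 3 genes of the ISG15 system were called lower, and none of the 3 factors was called. Library totals in place of TMM moved the median of all genes to 0.12 and left 23 members lower and 1 higher. The share of all genes called is not given for them.

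Of the 5 IFIT genes, 4 had between 0 and 3 molecules in plasmacytoid dendritic cells and Ifit2 had 8. Ifit1, which blocks translation of foreign RNA, had 4.707, 0.000 and 0.000 CPM in plasmacytoid dendritic cells and 180.5, 162.4 and 116.4 CPM in Cd209a dendritic cells, from 1 and 90 molecules (88.3-fold lower, 15.4 to 3530; adjusted p = 5.39e-06). Ifit3 had 3 and 69 molecules (22.6-fold lower, 7.41 to 112). Ifit3b had 0 and 14 molecules and Ifit1bl1 0 and 11, at least 4.58-fold and at least 3.60-fold lower. Summed over close copies, Ifit1 and Ifit1bl1 had 1 molecule against 101, and Ifit3 and Ifit3b 3 against 83.

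Rtp4, a receptor transporter gene induced by interferon, had 0.000, 5.592 and 0.000 CPM in plasmacytoid dendritic cells against 137.8, 151.2 and 131.5 CPM (80.4-fold lower, 14.0 to 3220). Isg15 had 37.65, 44.74 and 48.83 CPM against 380.0, 610.5 and 247.9 CPM, and Rsad2 28.24, 5.592 and 37.98 CPM against 289.8, 386.5 and 177.1 CPM. In each of these genes the classes did not overlap. Cmpk2, the neighbour of Rsad2 on chromosome 12, had 5 molecules in plasmacytoid dendritic cells and 19 in Cd209a dendritic cells and was not called (-2.11 ± 0.89, adjusted p = 0.078).

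Bst2 went the other way. It had 1770, 1857 and 1671 CPM in plasmacytoid dendritic cells and 175.8, 364.1 and 364.2 CPM in Cd209a dendritic cells (log2 ratio 2.36 ± 0.22 SE, adjusted p = 2.09e-11). None of the 3 factors was called: Stat2 was at 0.64 ± 0.27 (adjusted p = 0.075) without overlap, Irf9 at -0.17 ± 0.29 and Irf7 at -0.49 ± 0.33. Both Ifit3 and Bst2, whose promoters are printed above, hold the motif.

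**Figure D3:**
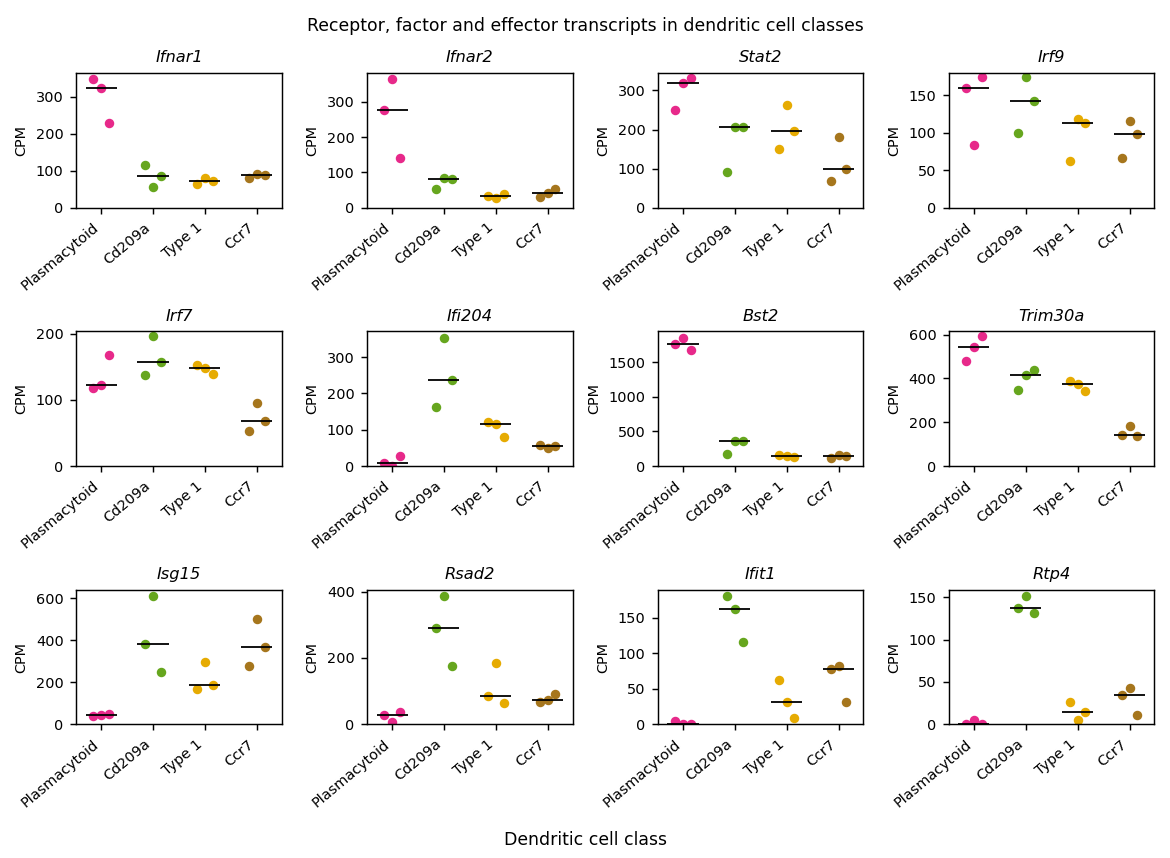
Levels in CPM (vertical axes, each starting at 0) of 2 receptor genes, 3 factors, 1 sensor and 6 effectors in 4 dendritic cell classes (horizontal axes); points are the 3 tags and lines their medians. In plasmacytoid cells Ifnar1, Ifnar2 and Bst2 are high, while Isg15 stays at or below 48.83 CPM and Ifit1 at or below 4.707 CPM.

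The receptor genes were called higher in the same cells. Ifnar1 was at 1.56 ± 0.27 (adjusted p = 1.35e-05), with 348.3, 324.3 and 227.9 CPM against 114.0, 56.01 and 86.00 CPM, and Ifnar2 at 1.61 ± 0.31 (adjusted p = 8.88e-05). Neither class overlapped the other. Tlr7, an endosomal RNA sensor, had 178.8, 190.1 and 222.5 CPM against at most 5.601 CPM, from 113 and 2 molecules (57.6-fold higher, 15.6 to 481).

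Of the 55 pathway genes, 4 were called higher and 22 lower in plasmacytoid dendritic cells. Jak1 (-0.30 ± 0.19) and Tyk2 (0.34 ± 0.41) were not called. Gbp2 had 1 and 182 molecules (179-fold lower, 31.6 to 7090), Oas1g 0 and 15 (at least 4.91-fold lower), and Ms4a4c was at -6.68 ± 0.53. Of the 35 further interferon-stimulated genes in the list, 18 were called lower and 0 higher.

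When type 1 dendritic cells, whose summed level was 2636 CPM, took the place of Cd209a dendritic cells, 13 members were called lower and 1 higher. This alternative was chosen after seeing the data. The share of all genes called is not given for this pair, so its counts have no background beside them. Of the 28 members called above, 14 kept their call and 24 their direction, with a median of -1.62. Depth was alike, with medians of 5330 and 5833 molecules per cell in plasmacytoid and Cd209a dendritic cells. C1q transcripts, which the gates of both classes cap, were at 27.13 CPM and 30.35 CPM. Plasmacytoid dendritic cells also carried 3841 CPM of the monocyte gate genes Ly6c2 and Chil3, of which Ly6c2 is known to be expressed by these cells themselves.

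Ccr7 dendritic cells, the mature form that carries antigen to lymph nodes, had lower levels of many members than Cd209a dendritic cells. Here 18 members were called lower and 0 higher, where 9.91% of all genes were called lower and 12.2% higher; no member was higher at an unadjusted p below 0.05, and DESeq2 called 17 lower and 0 higher. Ly6c2 and Chil3 summed to 31.52 CPM (25.38 to 79.38) in Ccr7 dendritic cells and 764.8 CPM (560.1 to 834.7) in Cd209a dendritic cells, and the part of monocyte transcripts in the result was not tested. The median log2 ratio was -1.11 for members and 0.04 for all genes. Library totals moved the median of all genes to -0.11 and gave 24 members lower, without a share of all genes beside them. Without tag 8, 11 members were called lower.

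Among those called, Cmpk2 had 0.000, 3.905 and 1.527 CPM in Ccr7 dendritic cells and 14.25, 61.61 and 25.29 CPM in Cd209a dendritic cells, from 3 and 19 molecules (20.5-fold lower, 6.03 to 108). Ifit3 had 13.70, 13.67 and 7.633 CPM against 85.51, 112.0 and 156.8 CPM (log2 ratio -3.13 ± 0.48 SE, adjusted p = 1.18e-06). Ifit3b was at -2.67 ± 0.78 (adjusted p = 0.0086), Ifit2 at -2.36 ± 0.58 and Isg20 at -2.28 ± 0.47. In each of these 5 genes the classes did not overlap.

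Not all effectors were lower. Isg15 had 367.9 CPM as its median in Ccr7 dendritic cells and 380.0 CPM in Cd209a dendritic cells, and none of the 3 genes of the ISG15 system was called. Ifit1bl1 (-2.35 ± 1.09, adjusted p = 0.10) and Ifit1 (-1.10 ± 0.44, adjusted p = 0.054) had the largest ratios without a call. Against type 1 dendritic cells, again chosen after seeing the data, 5 members were called lower and 3 higher. The share of all genes called is again not given for this pair. There Ifit3 turned to 0.62, Ifit3b to 0.69, Ifit1bl1 to 1.58 and Ifit1 to 1.03. Of the 18 members called lower against Cd209a dendritic cells, 5 kept their call and 12 their direction with this comparator, with a median of -0.55. Most calls, and the direction of these 4 IFIT genes, thus depended on the dendritic class chosen. After cells were thinned to 1000 molecules, 6 members were called lower of 22 tested; of the 11 earlier calls among them 4 were kept and all 11 had the same direction, with a median of -1.58.

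In Ccr7 dendritic cells, factors of the pathway were called in both directions. Irf8, a factor of dendritic cell development, was called higher, with 955.2, 1127 and 1050 CPM against 95.01, 95.22 and 116.4 CPM (log2 ratio 3.52 ± 0.27 SE, adjusted p = 9.38e-14). Irf7 was called lower (-1.02 ± 0.31). Jak1 was at 0.65 ± 0.16, Tyk2 at 0.83 ± 0.34, Ifnar1 at 0.16 ± 0.28 and Ifnar2 at -0.60 ± 0.35, none of them called. Of the 55 pathway genes 3 were called higher and 18 lower, among them Ifnb1, with 0 and 9 molecules (at least 9.70-fold lower), Slfn8 (-2.83 ± 0.41) and Ifi203 (-2.73 ± 0.25).

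CD8 T cells with checkpoint receptor molecules, meaning at least 2 molecules of Pdcd1, Havcr2, Lag3 or Tigit, had lower levels of many members than CD8 T cells with none. In this contrast 16 members were called lower and 0 higher, where 5.95% of all genes were called lower and 5.85% higher; no member was higher at an unadjusted p below 0.05, and DESeq2 called 17 lower and 0 higher. The median log2 ratio was -1.20 for members and 0.02 for all genes, and 33 of 34 members lay below 0. The summed level was 1078, 1183 and 1193 CPM against 1766, 2184 and 3104 CPM.

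The IFIT genes led this difference as well. Ifit1 had 33.39, 13.93 and 20.40 CPM in the cells with checkpoint molecules and 52.46, 96.65 and 153.8 CPM in those without (log2 ratio -2.41 ± 0.45 SE, adjusted p = 1.16e-04). Ifit3 had 25.04, 10.57 and 21.53 CPM against 56.83, 74.09 and 134.6 CPM (-2.41 ± 0.38). Ifit3b was at -2.76 ± 0.70, Ifit1bl1 at -2.19 ± 0.55 and Rtp4 at -2.12 ± 0.35. In all 5 genes the classes did not overlap.

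As sums of the close copies, Ifit1 and Ifit1bl1 had 47.30, 25.46 and 36.83 CPM against 83.06, 122.4 and 280.2 CPM, and Ifit3 and Ifit3b 29.22, 11.53 and 24.37 CPM against 65.57, 83.76 and 162.1 CPM. Tag 10 was the highest in the cells without checkpoint molecules. Without tag 10, 8 members were called lower, and 7 of the 16 kept their call; without tag 9, 11 were called, and 9 of the 16 kept theirs. Of the factors 2 were called lower, Irf9 (-1.42 ± 0.24) and Irf7 (-1.41 ± 0.35), while Stat2 was at -0.95 ± 0.29. Ifit2 (-1.35 ± 0.56) and Slfn5 (-1.21 ± 0.51) had the largest ratios without a call.

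Depth moved with this contrast: the median was 8113.5 molecules per cell with checkpoint molecules and 3477.5 without. The gate itself counts molecules, so depth and checkpoint expression cannot be told apart in it. After each cell was thinned to 1000 molecules, 22 members were tested and 3 called lower, and 2 of the 9 earlier calls among them were kept, with all 9 in the same direction and a median log2 ratio of -1.11. C1q transcripts, which the gates of both classes cap, were at 17.57 to 18.74 CPM in the first class and 16.11 to 43.95 CPM in the second. The monocyte gate genes Ly6c2 and Chil3 summed to 835.5 CPM (644.1 to 912.9) in the first class and 2545 CPM (1670 to 2758) in the second, without overlap; Ly6c2 is also known from CD8 T cells themselves. The part of these transcripts in the result was not tested.

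The receptor gene Ifnar2 was called lower in the cells with checkpoint molecules, at 20.87, 14.41 and 19.27 CPM against 56.83, 45.10 and 43.95 CPM (log2 ratio -1.47 ± 0.36 SE, adjusted p = 0.0022), and Ifnar1 was not (-0.41 ± 0.24). Jak1 was at -0.85 ± 0.13, under the 2-fold mark, and Tyk2 at 0.84 ± 0.38. Of the 55 pathway genes 1 was called higher, Irf8 (2.90 ± 0.28), and 13 lower, among them the feedback gene Socs3 (-2.11 ± 0.37), Ifi213 (-2.05 ± 0.34) and Slfn1 (-1.68 ± 0.29).

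**Figure D4:**
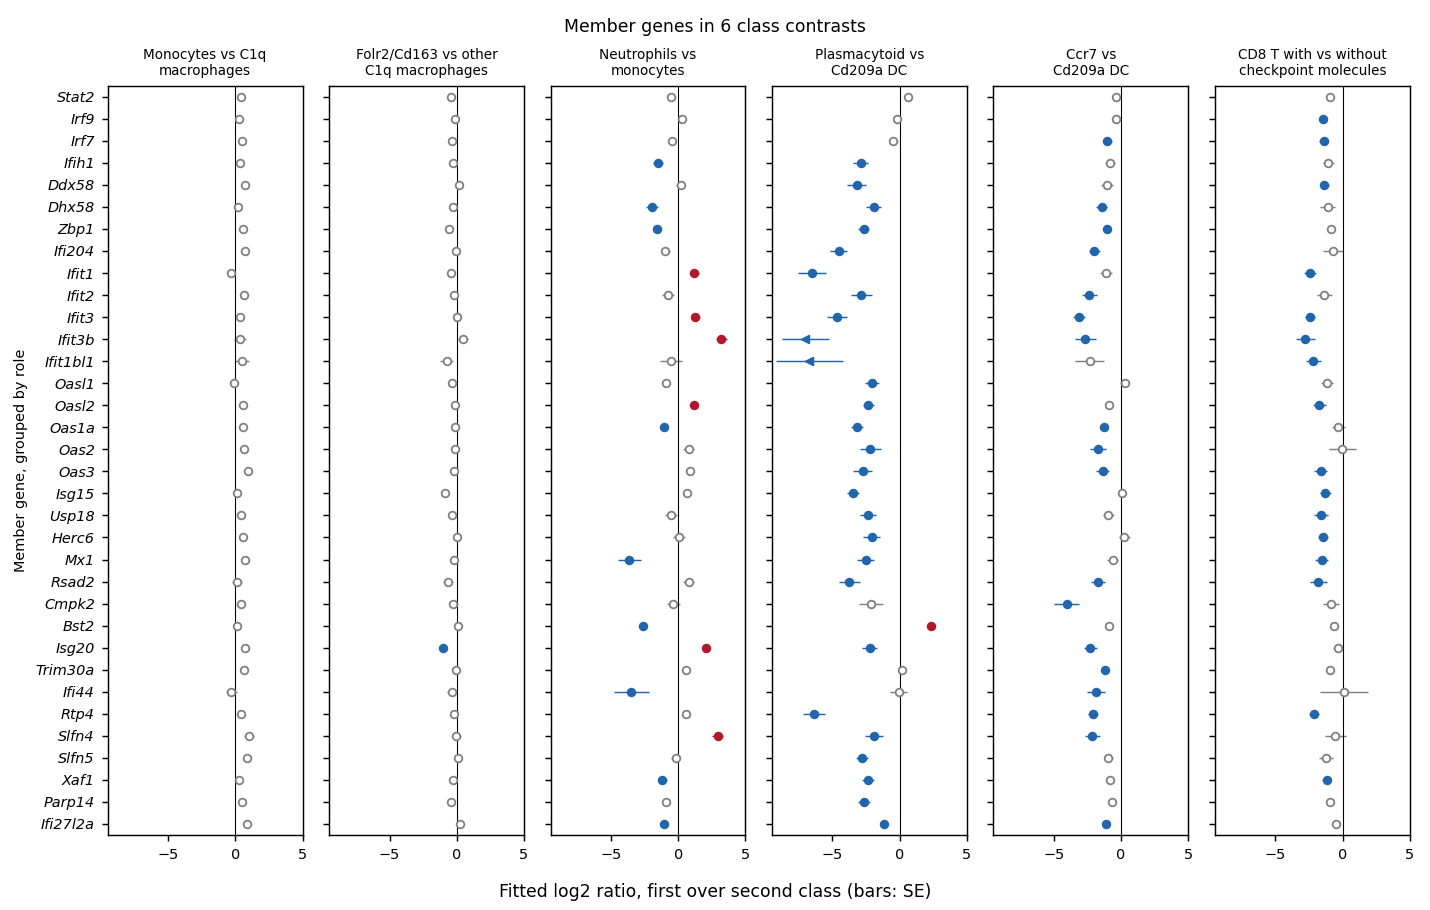
Fitted log2 ratio of each member (vertical axis) in 6 class contrasts (horizontal axes; bars are SE, n = 3 tags in each class); red marks members called higher, blue lower, open circles not called, and left-pointing triangles a member with no molecule in 1 class, whose ratio is not a bound. Called members are absent in monocytes against macrophages, mixed in neutrophils (6 higher, 9 lower), and almost all lower in plasmacytoid dendritic cells (27 of 34).

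Between tags the level of the set differed within classes; these values are a description with no test. The summed level was highest in tag 10 in 9 of the 18 classes, in tag 9 in 6 and in tag 8 in 3, and it was lowest in tag 8 in 11. In monocytes 28 of 34 members were highest in tag 10, where 38.1% of all genes with at least 30 molecules were highest in that tag. In regulatory T cells 22 of 27 members were highest in tag 9, against 30% of all genes, and in conventional CD4 T cells 17 of 25 were highest in tag 10, against 32.7%. Eosinophils had the widest range of the summed level, from 1925 CPM in tag 9 to 3966 CPM in tag 8 (2.06-fold). The neutrophil genes S100a8 and S100a9 summed to 118.2 CPM in eosinophils of tag 9 and 2658 CPM in those of tag 8, with 1163 CPM in tag 10 and a median of 17420 CPM in neutrophils; their part in the range was not tested. Neutrophils ran against monocytes, with 13 of 25 members highest in tag 8, against 31.5% of all genes.

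Single cells of 1 class differed widely. At an equal depth of 1000 molecules the members had a median of 6 molecules per cell in monocytes, 4 in other C1q macrophages and neutrophils, 3 in plasmacytoid dendritic cells, 1 in CD8 T cells with checkpoint molecules and 0 in melanoma cells. Cells without any member molecule made up 3.68% of monocytes (exact Clopper-Pearson 95% interval 2.44% to 5.31%), 4.50% of plasmacytoid dendritic cells (1.48% to 10.2%), 37.4% of CD8 T cells with checkpoint molecules (32.8% to 42.2%) and 74.0% of melanoma cells (59.7% to 85.4%). Before thinning these shares were 0.135%, 1.79%, 2.53% and 2.0%. The intervals cover counting error only, and the thinning left out 6, 1, 1 and 0 cells.

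Cells rich in member molecules held a large share of them in several classes. The most loaded 10% of neutrophils held 43.3% of the members' molecules, or 47.6% without Slfn4, and the highest cell had 103 of its 1000 molecules from members. This share was 48.3% in type 1 dendritic cells, 48.2% in eosinophils and 45.0% in both CD8 T cell classes. By counting error alone such a share is larger where cells have fewer member molecules, and the classes differ in that number. The shares therefore do not separate counting error from differences between cells. In plasmacytoid dendritic cells the top 10% held 23.4%, and no cell exceeded 8 molecules. Bst2 alone was found in 75.7% of these thinned cells (exact Clopper-Pearson 95% interval 66.6% to 83.3%; 95.5% before thinning). Without Bst2 the median was 1 molecule, the highest cell had 7, the top 10% held 30.9%, and 20 of 111 cells had none (exact 95% interval of the share 11.4% to 26.4%; 1.79% before thinning). The top 10% of monocytes held 32.3% and had molecules of a median of 13 members, against 4 in the remaining monocytes.

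**Figure D5:**
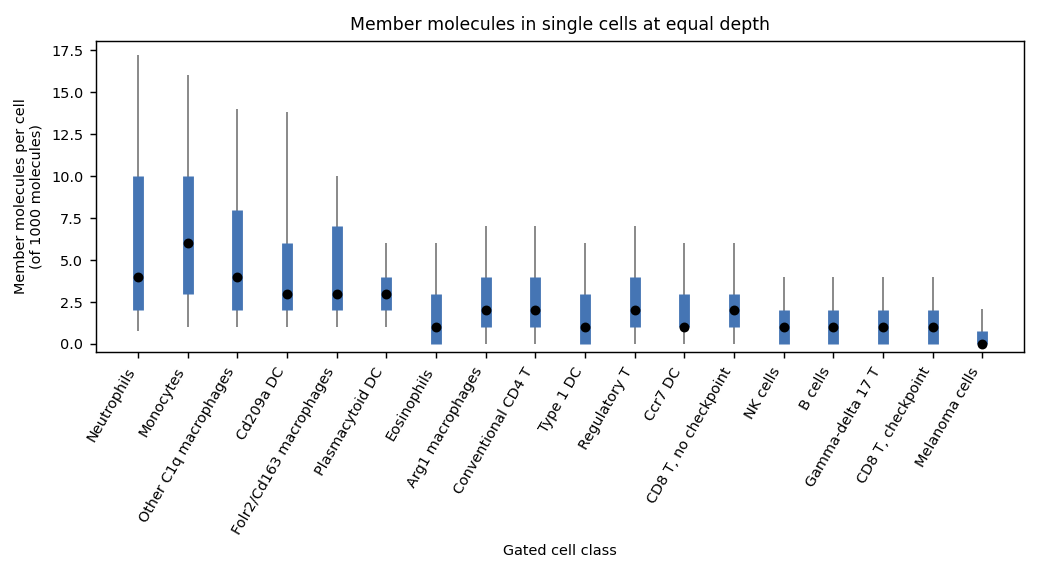
Member molecules per cell after thinning each cell to 1000 molecules (vertical axis) by gated class (horizontal axis, ordered by summed level); dots are medians, thick bars the middle 50% of cells and thin lines the span from the 10th to the 90th percentile. Monocytes have the highest median, 6, and plasmacytoid dendritic cells the shortest upper tail among the classes with a median of 3 or more.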

How the data were processed

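The deposited counts give, for each cell, the unique molecules of every gene, from version 1.9.1 of the BD Rhapsody WTA pipeline on GRCm38 with GENCODE vM19, per the file headers; the submitters' processing notes name GRCm39. Positions come from GENCODE vM21 and promoters from RefSeq on GRCm38.p6. Of 14899 cells, the 10491 used had a single sample tag, 200 or more genes and a mitochondrial share of up to 25%; 1448 cells with several tags and 361 with none called were left out, and no doublet caller was run. Molecules were summed by gated class and tag and fitted with edgeR 4.0.16 (R 4.3.3; TMM factors, filterByExpr, class and tag as terms), with DESeq2 1.42.0 as an alternative; classes needed 20 cells in every tag. The 17 classes in the fit held between 94811 and 3003297 molecules. The scripts were tested on simulated data. Cells were thinned to 1000 molecules for values at equal depth. The tag is the block because each tag was sampled in every class; it names a pool of 1 unnamed genotype.

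The genes printed for a contrast were up to 5 called members in each direction with the largest ratio, up to 2 uncalled members with the largest ratio, the receptor and kinase genes Ifnar1, Ifnar2, Jak1 and Tyk2 with 1 further signalling gene, which is not reported here, and up to 4 other called pathway genes. Members, lists and gates were chosen with earlier results of these data known. Of 73 pathway genes 65 were in the table and 55 were tested. Of 35 members, 25 matched a promoter window.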

Additional observations from a re-analysis of the deposited data

How the results depend on the processing

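The counts of called members and the summed levels stayed within 1.5 times, or within the spread between tags, in 130 cases and not in 24; the cause of these differences was not tested. In monocytes against macrophages, 0 members were called higher, and the alternatives gave 1 without the low-count filter, 1 with only the 2 classes in the fit, 4 with stricter gates and 0 to 2 when each tag was left out. In Folr2 or Cd163 macrophages the 1 member called lower became 0 with DESeq2, 0 with no tag block and 0 to 0 when each tag was left out, and the ratio of Ifit1bl1 ranged from -1.22 without tag 9 to 0.12 without tag 8. In neutrophils library totals gave 3 members higher and 17 lower. In plasmacytoid dendritic cells 13 members were lower against type 1 dendritic cells and 13 after thinning. In Ccr7 dendritic cells 3 were higher and 5 lower against type 1 dendritic cells, 6 lower after thinning, and 11 to 15 when each tag was left out; against type 1 dendritic cells Ifit3 was at 0.62, Ifit3b at 0.69, Ifit1bl1 at 1.58 and Ifit1 at 1.03. In CD8 T cells 3 were lower after thinning and 8 to 19 when each tag was left out. Thinned fits tested 22 of the 34 members, and the type 1 dendritic cell comparator was chosen after seeing the data. Shares of all genes called are given for the main fit only, and not for any of these alternatives. As the mean of single-cell CPM, the summed level was 4823 in Folr2 or Cd163 macrophages, 1650 in CD8 T cells with checkpoint molecules, 3325 in regulatory T cells, 1644 in gamma-delta 17 T cells and 535.1 in melanoma cells. Of the ratios of single named members, 359 kept direction and call, 30 lost and 27 gained the call, and 5 changed sign, all named above. Plasmacytoid and Cd209a dendritic cells held 112 and 97 cells, which limits genes of few molecules.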
